A study of Mus musculus with 4 samples.

Results

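The cells described here are macrophages of injured mouse Achilles tendon that carry mRNA for Folr2, the folate receptor beta, or Cd163, the receptor that takes up haemoglobin-haptoglobin complexes. They were taken from the Vegfc CRE day 7 library, in which 7071 barcodes passed the filters of at least 500 genes, at least 1000 unique molecular identifiers (UMIs) and under 15% mitochondrial UMIs. A macrophage had at least 5 UMIs of C1qa, C1qb and C1qc together, at least 1 UMI of Csf1r, and under 20 UMIs of Col1a1, Col1a2 and Dcn together. Of 1427 such macrophages, 630 had at least 2 UMIs of Folr2 and Cd163 together, and these are the members. They made up 8.91% of the cells of the library (exact binomial 95% interval 8.26 to 9.60) and 44.1% of its macrophages (41.6 to 46.8), out of 19021 filtered cells in the 4 libraries. The comparison macrophages are the 577 cells of the same library that passed the same limits with no UMI of either receptor. The members were chosen by the measured UMIs of C1qa, C1qb, C1qc, Csf1r, Folr2, Cd163, Col1a1, Col1a2 and Dcn, so these genes are given as a description only.

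The study profiled single cells of Achilles tendon after an injury named B/T in the labels, which do not expand the abbreviation. Its groups were Vegfc CRE mice with B/T at day 7, Prox1 eGFP mice with B/T at day 21 and at day 7, and untreated Prox1 eGFP mice at day 0, each 1 library from 5 pooled tendons. Strain, sex and age are not given in the sources used here, and the labels do not say which cells the Cre had marked. They describe a sort for cells expressing Prox1 and also call every library unsorted, and a Prox1 UMI was found in 1.15% of the filtered cells of Vegfc CRE day 7, against 86.9% in Prox1 eGFP day 21, 96.8% in day 7 and 8.84% in day 0. Among members, a Prox1 UMI was found in 2 of 630 (0.317%) and a Vegfc UMI in 2 of 630 members, against 3 of 577 comparison macrophages for Vegfc.

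Tissue macrophages that are maintained locally, often along vessels and in connective tissue sheaths, are marked in many mouse organs by Folr2, Cd163, Lyve1, Timd4 and the mannose receptor Mrc1. They are known for clearing dead cells, haemoglobin and matrix fragments by endocytosis. Macrophages that arise from recruited Ly6c2-positive monocytes are known for inflammatory cytokines at first, and some of them load peptides on MHC class II proteins for presentation to CD4 T cells.

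The Vegfc CRE day 7 library held 8711 barcodes and 92568978 UMIs, and 1640 barcodes were removed by the filters. Members had a median of 10278.5 UMIs and 2815 genes, against 8045 UMIs and 2280 genes in comparison macrophages. Their summed counts were 7287083 UMIs in members and 5016704 UMIs in comparison macrophages, and levels are given as counts per 1000000 (CPM) of these sums. Because the gate asks for raw UMIs, a deeper cell passes it more easily, and shares of cells are also given after each cell was thinned to 2000 UMIs, which 630 members and 565 comparison macrophages reached. Scrublet called 15 of 630 members doublets (2.38%) and 5 of 577 comparison macrophages (0.867%). Each pair of libraries shared between 2 and 10 filtered barcodes, and 2 barcodes of members were also kept in another library. The cells of 1 library are not replicates, so no difference below has a test, and every interval covers counting error only.

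Folr2 carried most of the gate. A total of 446 members (70.8%) had Folr2 UMIs and no Cd163 UMI, 181 (28.7%) had both, and 3 (0.476%) had Cd163 alone. Folr2 (chr7:101839988-101857194, minus strand, mm10) stood at 634 CPM in members, and Cd163 (chr6:124304656-124330527, plus strand) at 137 CPM. Mrc1 and Ccl8, the remaining markers of the label, were not in the gate. Mrc1, an endocytic receptor for mannose-bearing glycoproteins and collagen fragments, stood at 1242 CPM in members and 410.0 CPM in comparison macrophages, a ratio of 3.03 (2.89 to 3.18). After thinning, 80.2% of members and 47.4% of comparison macrophages had a Mrc1 UMI, beside 0.805% of endothelial cells of the same library. Before thinning, 3.30% of the 637 endothelial cells did, at a median of 9691 UMIs.

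Levels of several genes differed along the number of receptor UMIs, on which the gate itself was set; each level is a sum over cells, so a graded series and a changing mix of cells cannot be told apart. Just inside the gate, 116 cells had exactly 2 UMIs of Folr2 and Cd163, and just outside it 220 cells had 1 UMI, with median depths of 10513.5 and 8905 UMIs. Ccl8, a chemokine that acts on Ccr8 in mice, stood at 583, 1321, 1835, 3242, 5043 and 11932 CPM in cells with 0, 1, 2, 3 to 4, 5 to 9 and at least 10 UMIs of the receptors. Cd209f, a C-type lectin, stood at 1.79, 27.8, 23.8, 54.3, 94.96 and 876 CPM along the same grades. Both therefore had their highest level in the cells richest in the receptors, and for Cd209f most of the difference lay in the last grade. H2-Aa, the alpha chain of the MHC class II protein I-A, stood at 4104, 2387, 1164, 1003, 1044 and 1016 CPM, so its level was close to flat from 2 UMIs upwards. Il1b, the inflammatory cytokine interleukin 1 beta, stood at 898, 524, 449, 197, 218 and 188 CPM. When the cells were thinned to 5000 UMIs and graded again, Ccl8 stood at 729.8, 2458, 5480, 6052 and 14022 CPM and H2-Aa at 4002, 2223, 920, 1146 and 1440 CPM from 0 to at least 5 UMIs. Cells from 2 raw UMIs upwards are the members, those with 0 the comparison macrophages, and those with 1 are in neither.

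**Figure D1:**
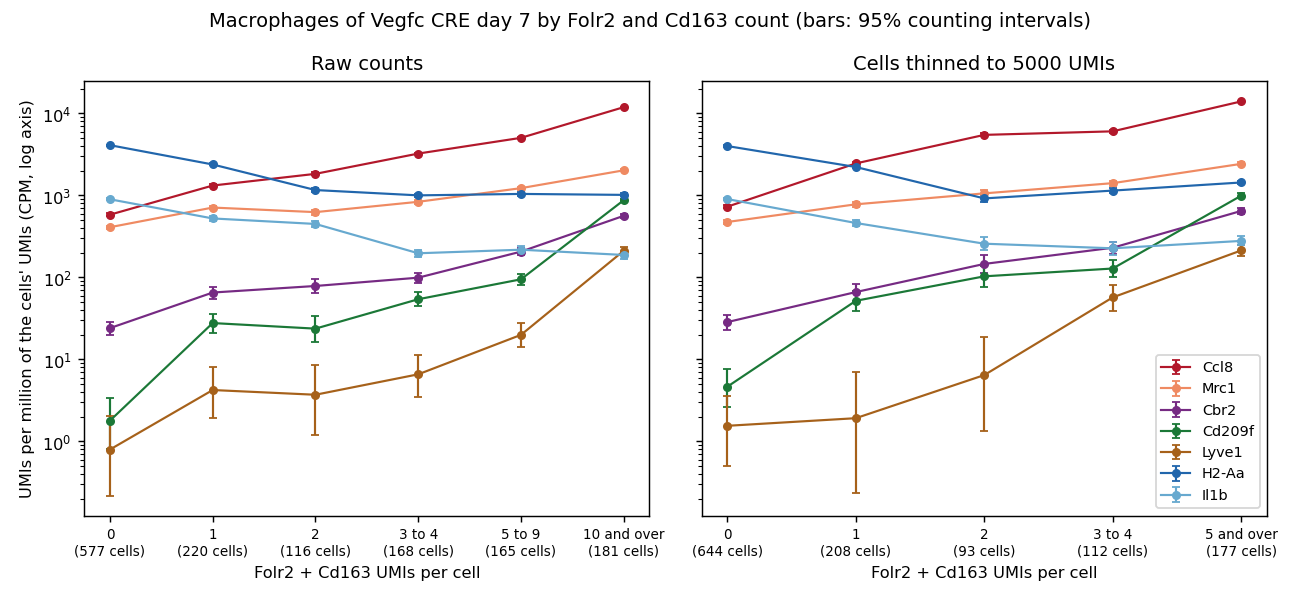
Level of 7 genes (CPM, log axis) in macrophages of the Vegfc CRE day 7 library by the number of Folr2 and Cd163 UMIs in the cell, from raw counts (left) and after thinning every cell to 5000 UMIs (right). Points are summed counts per grade with exact Poisson 95% intervals for counting error, and Ccl8 has its lowest level, 583 CPM, at 0 UMIs and its highest, 11932 CPM, at 10 and over, where H2-Aa stands at 1016 CPM.

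Set against comparison macrophages, members were richer in scavenger and lectin receptor genes and in Ccl8, and poorer in MHC class II, inflammatory and monocyte genes. Of 9458 genes with at least 50 UMIs over both groups, 369 (3.9%) were at least 2-fold higher in members and 183 (1.93%) at least 2-fold lower, with a median log2 ratio of 0.09. When comparison macrophages were taken without the limit on Col1a1, Col1a2 and Dcn, 320 of 9807 genes were higher by that much and 468 lower. Among 30 genes listed for resident macrophages, 2 were used by the gate and 3 (Cd209e, Mamdc2 and Timd4) were below the minimum. Of the other 25 genes, 21 reached a ratio of 2 and 0 fell to 0.5, and the median log2 ratio was 2.02. The 4 that were neither were Apoe, Pf4, Ninj1 and Mgl2, all between 1.44-fold and 1.81-fold higher. Some genes stand in more than 1 list, such as Ccl8, Igf1, Gas6, Mrc1 and Stab1, which the resident list holds too. These lists and the gate were chosen with earlier results of these cells known, so the counts describe the cells and are no independent support for the label.

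Among genes read in at least 10% of members, the largest ratios belonged to C-type lectins and to Lyve1, the hyaluronan receptor that also marks lymphatic vessels. Cd209f stood at 298 CPM in members and 1.79 CPM in comparison macrophages, a ratio of 166 (87.2 to 363). Cd209g stood at 88.8 CPM in members and 0.997 CPM in comparison macrophages, a ratio of 89.1 (38.0 to 275), and Cd209d at 84.5 and 2.19 CPM, a ratio of 38.6 (21.4 to 77.6). Lyve1 (chr7:110850607-110863239, minus strand) stood at 69.0 CPM in members and 0.797 CPM in comparison macrophages, a ratio of 86.6 (33.6 to 319). These genes were read in a minority of members: 19.7% of members and 1.21% of comparison macrophages had a Cd209f UMI, and 19.2% and 0.693% a Lyve1 UMI. After thinning the shares were 15.7% and 0% for Cd209f and 10.8% and 0% for Lyve1, where 0 of 565 cells allows a share of up to 0.531%. In endothelial cells the thinned shares were 0.644% for Cd209f and 1.13% for Lyve1, and 1.57% and 2.51% before thinning. A Prox1 UMI was found in 3.77% of these unthinned endothelial cells. The part of lymphatic cells in their Lyve1 share was not tested, so that share is not a plain background level. The 10% of members with most UMIs of each gene held 88.4% of the Cd209f counts, 85.3% of the Lyve1 counts and 99.4% of the Cd209d counts. Timd4, a receptor for phosphatidylserine on dying cells, had a UMI in 27 of 630 members (4.29%) and in 0.173% of comparison macrophages. Of the 27 members, 22 also had Lyve1, 22 had Cd209f and 21 had Cd163.

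Cd209f (chr8:4102787-4105835, minus strand) and Cd209g (chr8:4134098-4137707, plus strand) lie close together on opposite strands. Their promoter windows are shown because the pair had the largest ratios and near-identical starts. Each window runs from 250 bases before to 50 bases after the RefSeq gene start (GRCm38.p6), and capitals mark the letters TGAGTCA, the sequence bound by AP-1 dimers.
Cd209f, chr8:4105715-4106014, minus strand: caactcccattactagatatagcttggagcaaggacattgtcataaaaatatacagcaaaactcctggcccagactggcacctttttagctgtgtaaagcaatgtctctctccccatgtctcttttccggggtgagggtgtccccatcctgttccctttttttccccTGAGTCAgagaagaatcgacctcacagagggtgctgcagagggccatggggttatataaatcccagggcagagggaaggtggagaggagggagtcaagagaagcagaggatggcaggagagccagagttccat
Cd209g, chr8:4134486-4134785, plus strand: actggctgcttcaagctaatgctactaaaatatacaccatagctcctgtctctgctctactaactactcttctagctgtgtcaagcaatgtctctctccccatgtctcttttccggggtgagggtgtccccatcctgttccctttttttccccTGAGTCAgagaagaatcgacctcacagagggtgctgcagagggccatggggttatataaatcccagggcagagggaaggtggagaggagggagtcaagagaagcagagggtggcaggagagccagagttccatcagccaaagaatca
The windows lie 28471 bases apart and share an unbroken run of 180 bases, and 238 of 286 aligned bases (83.2%) are identical. TGAGTCA begins at base 168 of the Cd209f window and at base 154 of the Cd209g window. The letters occur on either strand in 5.20% of 32851 windows of this length, and in those of 3 of 27 matched resident-list genes (Cd209f, Cd209g and Folr2), 2 of 14 repair-list genes (Gpnmb and Mmp12) and 1 of 7 MHC class II genes. Of the 60-base stretches of the Cd209f transcripts in GENCODE M21, 26.8% also occur in Cd209g, and 14.96% of those of Cd209g occur in Cd209f. The reads assigned to each of the pair may thus be affected, but where in the transcripts these stretches lie was not examined, and the libraries read 3' ends. Cd209a, Cd209b and Cd209d share no such stretch with them or with each other.

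Some other genes were read in more of the members. Cbr2, a carbonyl reductase, stood at 258 CPM in members and 24.1 CPM in comparison macrophages, a ratio of 10.7 (8.90 to 12.96). After thinning, 36.0% of members, 4.96% of comparison macrophages and 0% of endothelial cells had a Cbr2 UMI, where 0 allows a share of up to 0.483%. Before thinning, 1.41% of endothelial cells did. F13a1, the A subunit of coagulation factor XIII that cross-links fibrin, stood at 894 CPM in members and 221 CPM in comparison macrophages, a ratio of 4.05 (3.80 to 4.32). Clec10a, a lectin for galactose-type sugars, stood at 478 and 118 CPM, also a ratio of 4.05. After thinning, 61.1% of members and 27.4% of comparison macrophages had a F13a1 UMI, so the difference reached most of the members. Fcna, a ficolin of the lectin pathway of complement, stood at 79.2 CPM in members and 5.98 CPM in comparison macrophages. C6, a component of the complement membrane attack complex, stood at 23.1 CPM in members with no UMI in comparison macrophages, at least 38.6-fold higher against 3 counts over that group, and was read in 10.95% of members. The other genes among the 15 largest ratios were Tslp, Cmah, Gfra2, Chp2, Ccl8, Bmp2, C4b and Ednrb, with ratios from 8.98 to 25.3.

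**Figure D2:**
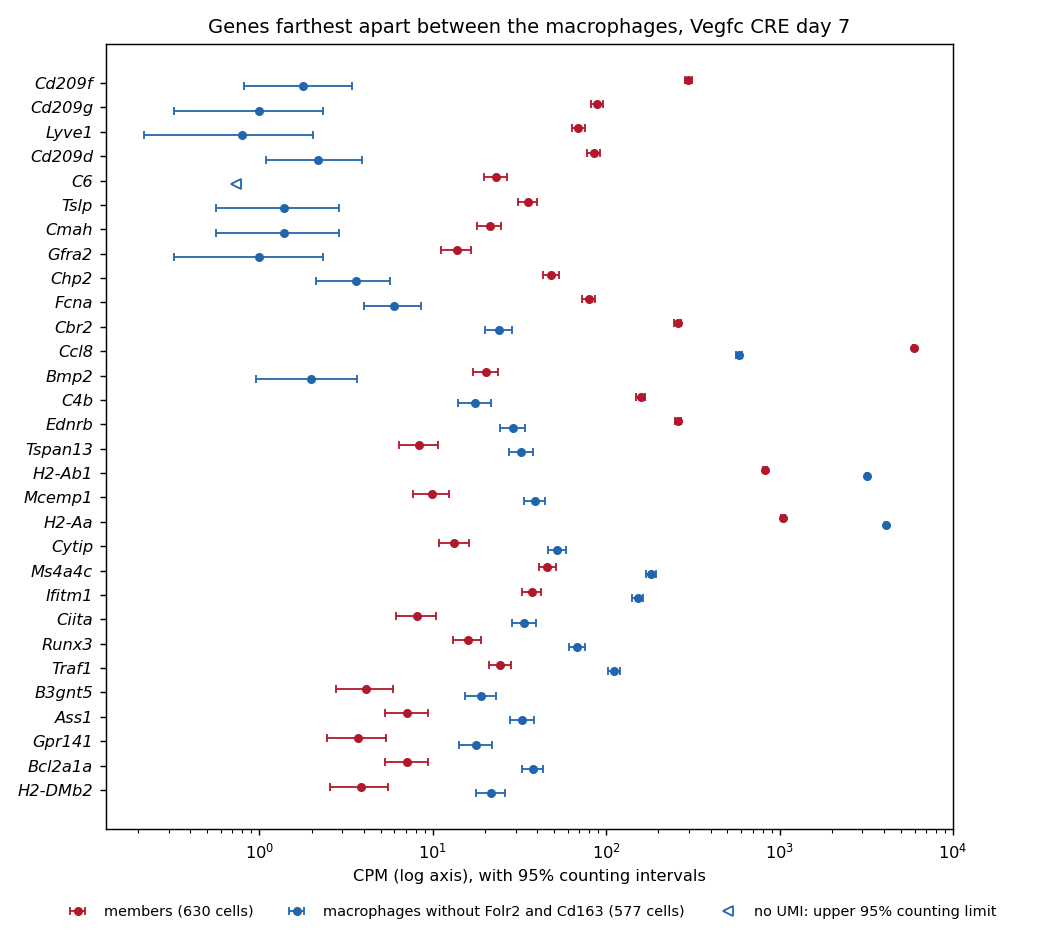
Level (CPM, log axis) of the 15 genes with the largest and the 15 with the smallest ratios, in members (red) and comparison macrophages (blue), with exact Poisson 95% intervals for counting error and, for C6, the upper limit where no UMI was found. Genes run from the largest ratio, Cd209f at 298 and 1.79 CPM, to the smallest of these, H2-DMb2 at 3.84 and 21.7 CPM.

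Genes for uptake of dying cells and ligands were higher in part. Of 21 listed efferocytosis and endocytosis genes, 9 reached 2-fold in members and 0 were that much lower (median log2 ratio 0.49). They included Gas6, the bridging ligand of the receptor kinases Axl and Mertk, at 448 CPM in members and 111 CPM in comparison macrophages, a ratio of 4.02 (3.68 to 4.41). Stab1, a scavenger receptor for modified lipoproteins, stood at 497 CPM in members and 200 CPM in comparison macrophages, a ratio of 2.49 (2.32 to 2.68). Gas6 also had a UMI in 30.6% and Stab1 in 58.2% of endothelial cells. The receptor Mertk was at 79.2 and 53.6 CPM and Axl at 33.3 and 61.8 CPM, neither past 2-fold. Of 14 iron and haem genes, 5 were higher and 1, Hp, was lower. Hmox1, which breaks down haem, stood at 1293 CPM in members and 636 CPM in comparison macrophages, and Slc40a1, the iron exporter ferroportin, at 86.7 and 30.5 CPM. Hmox1 was read in 33.1% of endothelial cells and 32.5% of 886 neutrophils, and its ratio of 2.03 lay close to the 2-fold limit.

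Complement genes moved in both directions. Of 14 genes with the minimum that the gate did not use, 4 were at least 2-fold higher in members, C4b among them, and 2 (C3 and Itgax) at least 2-fold lower. C4b, a component of the classical pathway, stood at 158 CPM in members and 17.5 CPM in comparison macrophages, a ratio of 9.01 (7.25 to 11.3). C3, the component on which the complement pathways converge, stood at 51.5 CPM in members and 105 CPM in comparison macrophages. Of 19 lysosomal genes, 1 was at least 2-fold higher, Ctsl, a cysteine protease, at 2499 CPM in members and 1012 CPM in comparison macrophages.

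Among 20 chemokine genes, 5 passed 2-fold upwards in members and 1 downwards, and the median log2 ratio was -0.03. Ccl8 (chr11:82115185-82116799, plus strand) stood at 5963 CPM in members and 583 CPM in comparison macrophages, a ratio of 10.2 (9.86 to 10.6). A Ccl8 UMI was found in 76.7% of members and 38.8% of comparison macrophages, but also in 23.4% of endothelial cells and in 22.5% of neutrophils. The neutrophils had a median of 2184 UMIs. After thinning, the shares were 65.9%, 22.8%, 6.76% and 17.5% in the same order. The source of the Ccl8 UMIs in endothelial cells and neutrophils was not tested. Within members its level was uneven, with a median of 24.6 UMIs per 10000 per cell, quartiles of 0.645 and 111, and a highest cell of 540, and the top 10% of cells held 48.2% of the counts. Ccl7 and Ccl2, ligands of the monocyte receptor Ccr2, stood at 233 and 273 CPM in members, against 59.6 and 105 CPM in comparison macrophages. Ccl6 and Ccl24 were the other chemokines at least 2-fold higher. Cxcl3 was lower, at 6.04 CPM in members and 97.5 CPM in comparison macrophages, and had a UMI in 2.54% of members and 4.16% of comparison macrophages, so few cells carried it.

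Of 15 growth factor genes, 3 were at least 2-fold higher in members (Bmp2, Igf1 and Pdgfc) and 2 at least 2-fold lower (Areg and Vegfa). Igf1, which drives growth of muscle and connective tissue cells, stood at 415 CPM in members and 149 CPM in comparison macrophages, a ratio of 2.80 (2.58 to 3.03). Pdgfc, a ligand for fibroblast PDGF receptors, stood at 51.1 and 12.2 CPM, and Vegfa, the main angiogenic factor, at 14.4 CPM in members and 40.3 CPM in comparison macrophages. Among 26 receptor genes, Nrp1 and Tgfbr2 were at least 2-fold higher and Ccr2, Cx3cr1 and Flt1 at least 2-fold lower. Ccr2, the receptor by which monocytes leave the marrow, stood at 173 CPM in members and 399.9 CPM in comparison macrophages, a ratio of 0.432 (0.402 to 0.463).

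MHC class II genes were lower together. Of 10 listed genes 8 had the minimum, and all 8 were at least 2-fold lower in members, with a median log2 ratio of -1.95; their summed level was 5301 CPM in members and 19107 CPM in comparison macrophages. The remaining H2-Oa and H2-Ob had 2 and 2 UMIs in members, against 1 and 5 UMIs in comparison macrophages. H2-Aa (chr17:34282744-34287823, minus strand) stood at 1047 CPM in members and 4104 CPM in comparison macrophages, a ratio of 0.255 (0.248 to 0.262). H2-Ab1, the partner chain of H2-Aa, stood at 819 and 3192 CPM, and H2-Eb1 (chr17:34305867-34316674, plus strand), the beta chain of I-E, at 920 and 3543 CPM. Cd74, the invariant chain that holds the peptide groove closed, stood at 2310 CPM in members and 7631 CPM in comparison macrophages. Ciita, the transactivator on which transcription of these genes depends, stood at 8.10 CPM in members and 33.7 CPM in comparison macrophages, a ratio of 0.240 (0.176 to 0.325). H2-DMb2, a chain of the peptide-loading protein DM, had the smallest ratio among genes read in at least 10% of the higher group, 0.177 (0.112 to 0.270).

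The difference in MHC class II was one of shares as well as of levels. After thinning, 34.0% of members and 61.9% of comparison macrophages had a H2-Aa UMI, beside 1.45% of endothelial cells and 6.81% of neutrophils. Before thinning, 9.42% of endothelial cells and 8.24% of neutrophils did. The sum of H2-Aa, H2-Ab1, H2-Eb1 and Cd74 had a median of 2.63 UMIs per 10000 per member cell and 103 per comparison cell, with upper quartiles of 49.6 and 407. Members thus ranged from near 0 to the level of comparison macrophages, and the groups overlapped. The windows of 2 class II genes are shown because these genes moved together. Capitals mark GATTGG or its complement CCAATC, the core of the Y box that NF-Y binds next to the X boxes to which Ciita is recruited.
H2-Aa, chr17:34287774-34288073, minus strand: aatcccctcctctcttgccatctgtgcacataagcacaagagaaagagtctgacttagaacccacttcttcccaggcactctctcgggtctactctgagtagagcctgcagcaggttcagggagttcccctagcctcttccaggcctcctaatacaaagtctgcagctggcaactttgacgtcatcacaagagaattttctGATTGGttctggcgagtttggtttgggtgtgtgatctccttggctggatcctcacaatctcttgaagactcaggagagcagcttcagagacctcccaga
H2-Eb1, chr17:34305617-34305916, plus strand: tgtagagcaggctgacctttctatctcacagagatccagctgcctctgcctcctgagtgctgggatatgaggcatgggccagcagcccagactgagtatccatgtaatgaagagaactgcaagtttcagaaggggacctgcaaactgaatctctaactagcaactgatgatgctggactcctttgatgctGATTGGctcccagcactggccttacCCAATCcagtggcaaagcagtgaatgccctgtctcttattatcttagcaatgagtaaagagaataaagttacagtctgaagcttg
The letters begin at base 202 of the H2-Aa window and at bases 191 and 216 of the H2-Eb1 window. On either strand, GATTGG occurs in the windows of 7 of 7 matched MHC class II genes, against 16.1% of 32851 windows and 3 of 27 resident-list genes. The longer CTGATTGG was found in 3 of 7 and 4.10% of windows, and the shorter ATTGG, contained in both, in 7 of 7 and 37.4%.

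Inflammatory and monocyte genes were lower as well. Of 16 inflammatory cytokine and mediator genes, 8 passed 2-fold downwards in members (Clec4e, Il1a, Il1b, Il1rn, Nlrp3, Osm, Ptgs2 and Trem1) and 1, Ptgs1, upwards; their median log2 ratio was -1.03. Il1b stood at 247 CPM in members and 898 CPM in comparison macrophages, a ratio of 0.274 (0.260 to 0.290), and 14.1% and 36.8% of thinned cells had a UMI. Neutrophils of the library carried Il1b in 99.3% of cells, and the summed neutrophil marker list was 464 CPM in members and 540.0 CPM in comparison macrophages; the part of those cells in the difference was not tested. Of 16 inflammatory monocyte genes, 12 passed 2-fold downwards and 1, Ifitm6, upwards (median log2 ratio -1.36), with sums of 831 and 1951 CPM. Ccr2, Clec4e and Hp were counted in another list too, and the reads of Ly6c2 and Ly6i cannot be fully separated from those of their near-identical neighbours. Ly6c2, the marker of inflammatory monocytes, stood at 5.22 CPM in members and 39.9 CPM in comparison macrophages, a ratio of 0.131 (0.0899 to 0.186), and was read in 2.70% and 9.53% of cells, beside 1.88% of endothelial cells and 10.7% of neutrophils. After thinning it was read in 0.952% of members, 5.13% of comparison macrophages and 9.39% of neutrophils. With every cell that had a Ly6c2 UMI left out of both groups, 350 of 9366 genes were at least 2-fold higher and 169 at least 2-fold lower. This choice was made after the data were seen, and with those cells kept the counts were 369 and 183 of 9458.

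Regulators of transcription differed in a few genes. Of 30 listed transcription factors, 3 (Egr3, Klf2 and Nfia) were at least 2-fold higher in members and 3 (Bhlhe40, Id3 and Runx3) at least 2-fold lower, with a median log2 ratio of 0.10. Maf, which acts in resident and tissue-adapted macrophages, stood at 946 CPM in members and 493 CPM in comparison macrophages, a ratio of 1.92 (1.83 to 2.01) that did not reach 2-fold. Runx3, a regulator of lymphocyte and mononuclear phagocyte genes, stood at 15.9 CPM in members and 68.0 CPM in comparison macrophages. The other genes among the 15 smallest ratios were Bcl2a1a, Gpr141, Ass1, B3gnt5, Traf1, Ifitm1, Ms4a4c, Cytip, Mcemp1 and Tspan13, with ratios from 0.189 to 0.259. Traf1, an adaptor of TNF receptors, stood at 24.4 CPM in members and 111 CPM in comparison macrophages, and Bcl2a1a has near-identical copies with which its reads may be shared. Of 19 immediate early and heat shock genes, which also respond to enzymatic digestion, Egr1 was higher, at 335 CPM in members and 149 CPM in comparison macrophages, and Hspa1a lower, at 1097 and 2251 CPM.

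Most other lists had few genes past 2-fold. Of 21 genes of the Trem2 and Spp1 repair programme 0 were 2-fold higher or lower (median log2 ratio 0.24), and of 14 interferon genes 0 were (0.08). Proliferation had 1 of 15 higher (Rrm2), glycolysis 1 of 18 lower (Slc2a1), sterol and lipid metabolism 2 of 20 higher (Apoc1 and Scd1), and matrix remodelling 1 of 19 higher (Timp2) and 3 lower (Mmp13, Plaur and Tgfbi). The count for the repair list depended on the gate: with members limited to cells that had a UMI of both receptors, 14 of its genes were at least 2-fold lower, and with at least 5 UMIs of the receptors 2 were. Proliferation had 6 genes higher with at least 5 receptor UMIs and 0 with both receptors, and glycolysis 6 lower with both receptors. Calls over all genes also differed between these settings. With both receptors, 718 of 8108 genes were at least 2-fold higher and 430 at least 2-fold lower. With at least 5 receptor UMIs, 444 of 8747 genes were higher by that much and 291 lower.

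**Figure D3:**
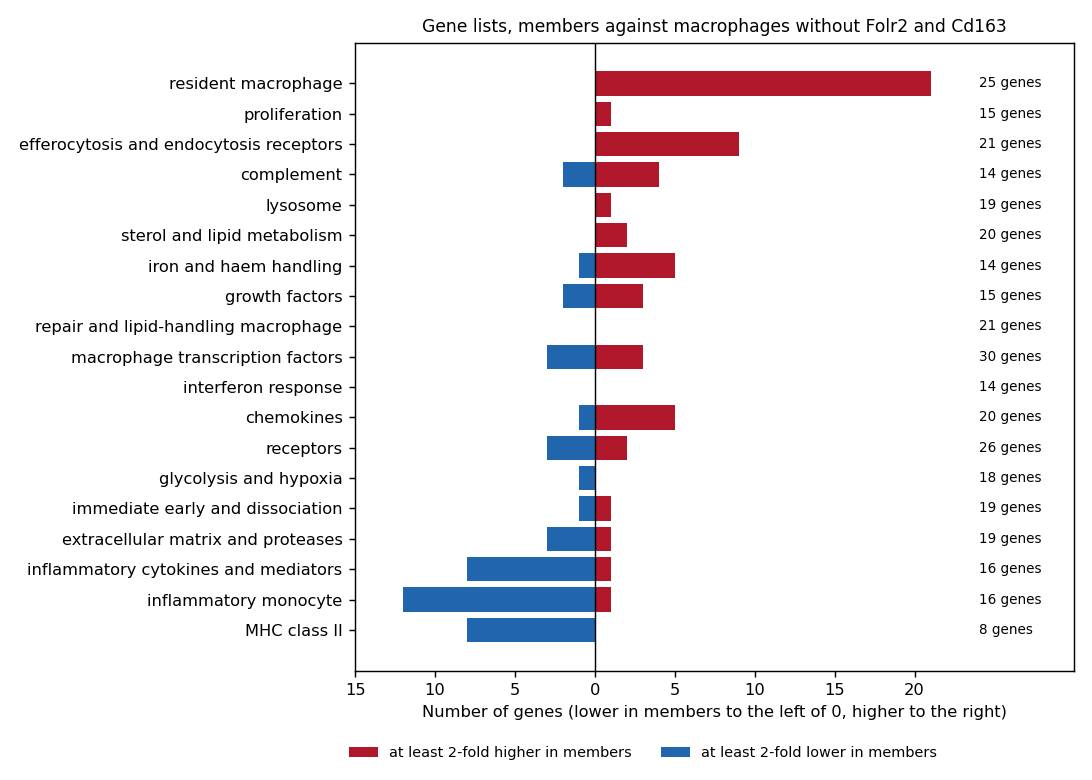
Number of genes of each of the 19 programme lists that were at least 2-fold higher (red, to the right) or lower (blue, to the left) in members than in comparison macrophages, with the number of genes that had the minimum at the right edge. Lists run from the highest median ratio to the lowest; 21 of 25 resident macrophage genes lie to the right and 8 of 8 MHC class II genes to the left.

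Markers of other cell types were low in both groups. The summed fibroblast list stood at 418 CPM in members and 432 CPM in comparison macrophages, the tendon list at 16.6 and 17.5 CPM, and the mural list at 64.4 and 66.8 CPM. The fibroblast list holds 3 genes of the gate, Col1a1, Col1a2 and Dcn, which were limited to under 20 UMIs in both groups. Its sum was therefore set in part by the gate. The vascular endothelial list stood at 69.0 and 124 CPM, with 4 of 9 genes at least 2-fold lower in members. The lymphatic list stood at 135 CPM in members and 69.2 CPM in comparison macrophages, a sum that includes Lyve1 itself; Mmrn1 was at 0 in members, and Ccl21a, Mmrn1, Prox1 and Reln were at 0 in comparison macrophages. Among B cell genes Ighm stood at 139 CPM in members and 70.2 CPM in comparison macrophages, while Cd79a, Ms4a1 and Pax5 were at 0 in members. The dendritic cell list stood at 35.8 and 33.9 CPM, with Ccr7, Clec9a, Flt3 and Xcr1 at 0 in members. Of its 3 genes with the minimum, 1, the lectin gene Cd209a, was at least 2-fold higher in members and 0 were that much lower. The T and NK list stood at 42.0 and 41.5 CPM. The osteoclast list stood at 444 CPM in members and 642 CPM in comparison macrophages, the mast cell list at 6.72 and 4.19 CPM, and the muscle list at 17.4 and 21.1 CPM.

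Cd163 divided the members further. Setting the 184 members with a Cd163 UMI (median 8636 UMIs) against the 446 without one (median 10787.5) was chosen after the data were seen. Of 8384 genes with the minimum, 428 (5.1%) were at least 2-fold higher in Cd163-positive members and 336 (4.01%) at least 2-fold lower. Of 25 resident-list genes, 20 reached 2-fold in Cd163-positive members and 0 were that much lower, and the median log2 ratio was again 2.02. Of 21 repair-programme genes, 15 were lower by that much and 0 higher, and the median was -1.84. MHC class II genes did not divide in this way: 0 of 7 passed 2-fold in either direction (median 0.20).

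Lectins led the higher genes. Cd209b stood at 119 CPM in Cd163-positive and 4.10 CPM in Cd163-negative members, Cd209f at 1018 and 81.9 CPM, and Lyve1 at 241 and 17.5 CPM. Ccl24, an attractant of eosinophils, stood at 158 CPM in Cd163-positive and 17.1 CPM in Cd163-negative members. A Lyve1 UMI was found in 33.3% of thinned Cd163-positive and 5.65% of thinned Cd163-negative members, and a Cd209f UMI in 50.4% and 7.80%. In the other direction the smallest ratio, 0.0135 (0.000341 to 0.0760), was that of Il7r, the interleukin 7 receptor, at 0.595 CPM (1 UMI) in Cd163-positive and 44.0 CPM in Cd163-negative members. Gpnmb, a glycoprotein of lipid-laden macrophages and osteoclasts, stood at 48.2 CPM in Cd163-positive and 535 CPM in Cd163-negative members, a ratio of 0.0902. Fabp5, a fatty acid carrier, stood at 796 and 5613 CPM, Spp1, the matrix protein osteopontin, at 537 and 2928 CPM, and Ctsk, a collagen-degrading protease, at 11.3 and 101.5 CPM. Lgals3, which encodes galectin 3, stood at 641 CPM in Cd163-positive and 3510.2 CPM in Cd163-negative members. In the same split 8 of 19 immediate early and heat shock genes were at least 2-fold higher in Cd163-positive members, Egr1 at 755 and 209 CPM; the part of the digestion in this was not tested.

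Set beside the comparison macrophages, the subsets differed from them in unlike ways. Spp1 stood at 537 CPM in Cd163-positive members, 2928 CPM in Cd163-negative members and 1686 CPM in comparison macrophages, and Gpnmb at 48.2, 535 and 233 CPM. Arg1, an enzyme of arginine breakdown used in repair, stood at 39.9, 118 and 107 CPM in the same order, and 5 of 184 Cd163-positive members held its UMIs. These repair genes were thus lowest in Cd163-positive members, and for Spp1 and Gpnmb highest in Cd163-negative members. H2-Aa stood at 1172, 1010 and 4104 CPM and Il1b at 331, 221 and 898 CPM, so both subsets lay below comparison macrophages. Ccl8 stood at 13093 CPM in Cd163-positive members, 3827 CPM in Cd163-negative members and 583 CPM in comparison macrophages, and Mrc1 at 2393, 898 and 410.0 CPM. Summed per cell, Spp1, Gpnmb, Fabp5 and Arg1 had a median of 2.10 UMIs per 10000 in Cd163-positive members, 30.7 in Cd163-negative members and 15.6 in comparison macrophages. At least 1 UMI of Lyve1, Timd4, Cd209d, Cd209f or Cd209g was found in 119 of 184 Cd163-positive members, 69 of 446 Cd163-negative members and 18 of 577 comparison macrophages. The gate used Cd163, so these values describe the subsets and are no check of the name resident-type.

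**Figure D4:**
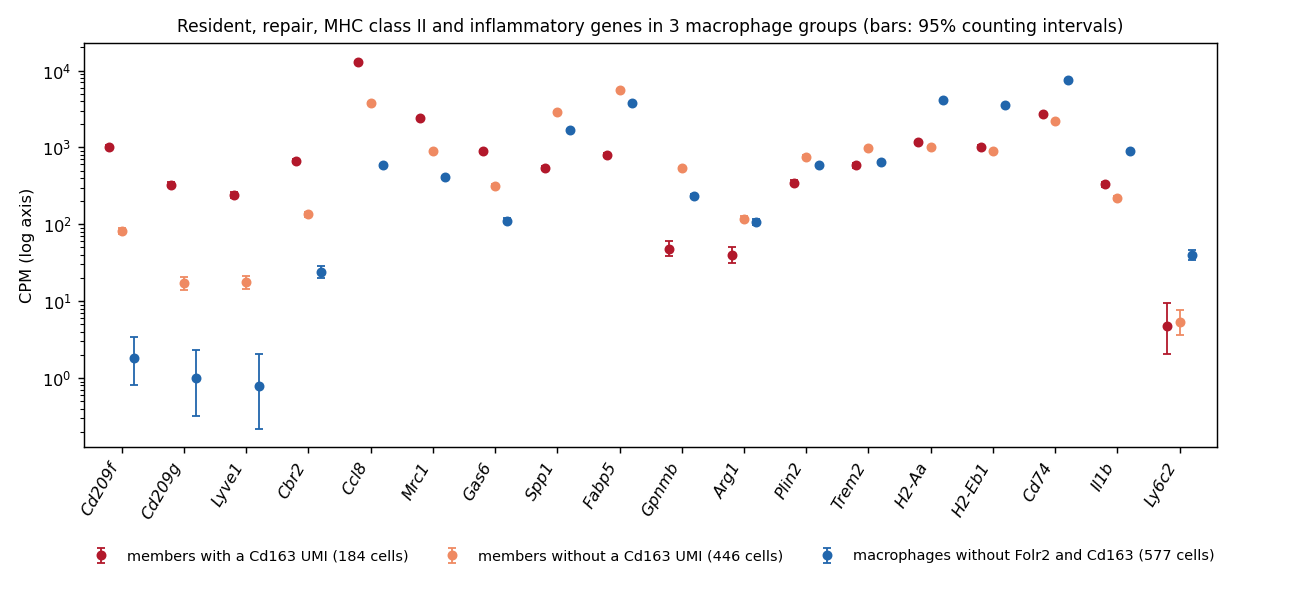
Level (CPM, log axis) of 18 genes in Cd163-positive members, Cd163-negative members and comparison macrophages, with exact Poisson 95% intervals for counting error. Ccl8, Mrc1 and Cd209f are highest in Cd163-positive members, Spp1 and Gpnmb in Cd163-negative members, and H2-Aa in comparison macrophages.

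Lyve1 gave a similar division with a smaller high group. Of 8383 genes, 470 (5.61%) were at least 2-fold higher in the 121 members with a Lyve1 UMI than in the 509 without one, and 391 (4.66%) at least 2-fold lower. Resident-list genes were higher in 18 of 24 and lower in 0, repair genes lower in 13 of 21 and higher in 0, and MHC class II genes past 2-fold in 0 of 7. Fcna stood at 338 CPM in Lyve1-positive and 30.5 CPM in Lyve1-negative members. Retnla, a secreted protein induced by interleukin 4, stood at 1036 and 106 CPM, a ratio of 9.77 (8.88 to 10.8). Its UMIs were read in 20.7% of Lyve1-positive and 3.14% of Lyve1-negative members, so a minority of cells held them. Fgfr1, a fibroblast growth factor receptor, stood at 169.8 and 15.98 CPM. Spp1 stood at 164 CPM in Lyve1-positive and 2794 CPM in Lyve1-negative members, a ratio of 0.0586 (0.0505 to 0.0676). Arg1 stood at 5.20 and 118 CPM, so both were lower in Lyve1-positive members. Lyve1 was read in 83 of 184 Cd163-positive members (45.1%), so the splits share many cells and are not separate support for each other.

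The gate found 39 members in Prox1 eGFP day 21, 8 in Prox1 eGFP day 7 and 2 in Prox1 eGFP day 0, with 18, 6 and 2 comparison macrophages. At day 21 members were 60.9% of 64 macrophages. Only day 21 allowed a comparison of the same kind, with a minimum of 15 cells that was lowered after the data were seen, and there 137 of 2075 genes (6.6%) were at least 2-fold higher in members and 69 (3.33%) at least 2-fold lower. Genotype, time and library all differ from Vegfc CRE day 7 and cannot be told apart, so the 2 libraries' values are set side by side.

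Of the 15 genes with the largest ratios in Vegfc CRE day 7, 11 had the minimum at day 21, and all 11 were at least 2-fold higher in members. The minimum was summed over 39 members and 18 comparison macrophages, so a gene high in members passed it more easily than one low in them. The counts of higher genes at day 21 are therefore a description and no independent support. Ccl8 stood at 10623 CPM in members and 1066 CPM in comparison macrophages at day 21, a ratio of 9.96 (8.85 to 11.3), beside 10.2 in Vegfc CRE day 7. Cd209f stood at 289 CPM in members and 14.8 CPM in comparison macrophages, and Cd209d at 263 CPM in members with 0 UMIs in comparison macrophages, at least 23.8-fold higher. Lyve1 stood at 280.4 CPM in members and 125 CPM in comparison macrophages, a ratio of 2.24 (1.52 to 3.36) beside 86.6 in Vegfc CRE day 7, and its 34 UMIs in comparison macrophages came from 16.7% of 18 cells. A Prox1 UMI was found in 86.9% of day 21 cells and Lyve1 also marks lymphatic cells, whose part in these Lyve1 counts was not tested; nor was the difference between the libraries. Of 22 resident-list genes, 21 passed 2-fold upwards and 0 downwards (median log2 ratio 1.62).

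The lower genes could be compared only in part. Of the 15 genes with the smallest ratios in Vegfc CRE day 7, 2 had the minimum at day 21. These 2 were lower in members, but 0 were at least 2-fold lower (median log2 ratio -0.54). H2-Aa stood at 4210 CPM in day 21 members and 6005 CPM in day 21 comparison macrophages, a ratio of 0.701, and 2 of 6 MHC class II genes, H2-DMa and H2-DMb1, were at least 2-fold lower. Il1b stood at 231 CPM in members and 616 CPM in comparison macrophages, a ratio of 0.375. The 8 members of Prox1 eGFP day 7 had Ccl8 at 12865 CPM, Cd209f at 159 CPM, Lyve1 at 53.1 CPM and H2-Aa at 2713 CPM, with too few comparison cells for a ratio.

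**Figure D5:**
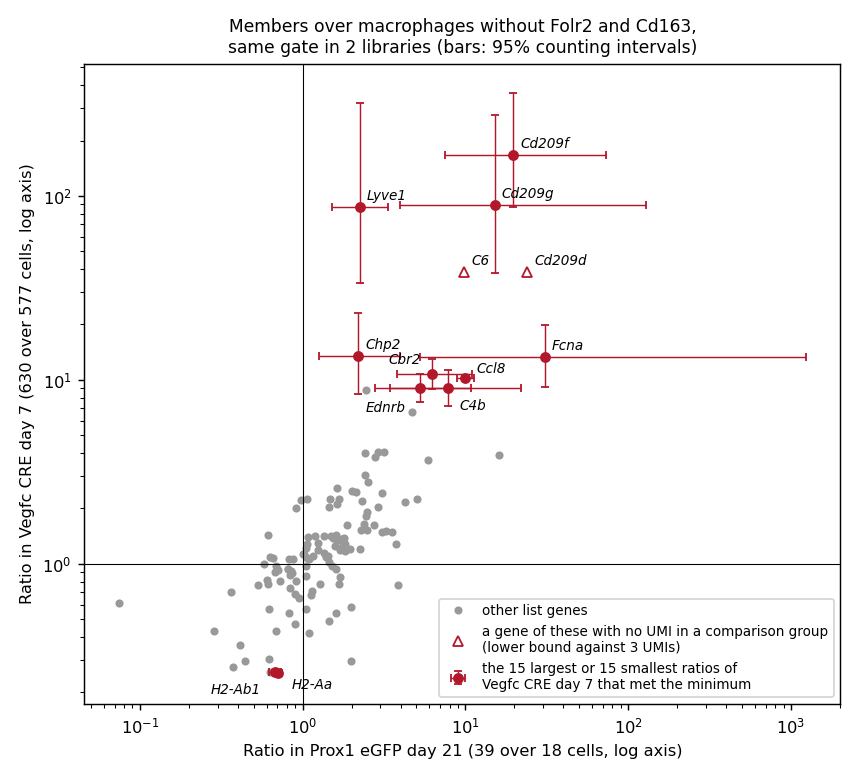
Ratio of members over comparison macrophages in Prox1 eGFP day 21 (horizontal log axis) and in Vegfc CRE day 7 (vertical log axis); red points are genes among the largest or smallest ratios of Vegfc CRE day 7, with 95% counting intervals, open triangles are lower bounds and grey points are other listed genes. The 11 red genes with large ratios in Vegfc CRE day 7 all lie right of 1 at day 21, where the UMI minimum favoured genes high in members.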

How the data were processed

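The 4 libraries were single-cell 3' RNA libraries from pooled, enzymatically digested tendons. The authors deposited UMI counts per gene and barcode, made with Cell Ranger 5.0.1 on mm10 per the submitters' processing notes, with no normalization. The members and gene lists were chosen with earlier results of these data known. Members and comparison macrophages were gated on raw UMIs as described, with the same collagen and Dcn limit in both. UMIs were summed per group and divided by the group's total to give CPM. Genes needed 50 UMIs over both groups. Ratios carry exact conditional binomial 95% intervals and shares Clopper-Pearson intervals, which cover counting error only. A ratio against 0 used 3 counts over the group. Calls are ratios of at least 2 or at most 0.5, with no test, as each group is 1 library. Named genes were the 15 largest and 15 smallest ratios with an interval wholly past 2-fold and a UMI in at least 10% of the cells of the higher group, up to 8 genes of highest CPM per list, and every list gene past 2-fold, without genes of the gate, mitochondrial or ribosomal protein genes. Mertk, Axl, Timd4, Arg1 and the genes of the splits and of day 21 were named after their values were seen. In total 31 lists were used, 19 of programmes and 12 of other cell types. The ratios and calls were tested on simulated data with Poisson counting error only, the error that the intervals assume. The uneven spread of counts over cells was not simulated. Scaling alternatives used edgeR 4.0.16 (R 4.3.3), and the rest Python 3.11.15 with numpy 2.4.6, scipy 1.17.1 and scanpy 1.11.5. Endothelial cells had at least 3 UMIs of Cdh5 and Pecam1 together, and neutrophils at least 50 of S100a8 and S100a9 together and a Csf3r UMI. Both were filtered cells with no Csf1r UMI and under 20 UMIs of Col1a1, Col1a2 and Dcn together.

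Promoter windows were searched on both strands for 11 motifs, named here with the share of all windows that hold each. CTGATTGG was in 4.10%, GATTGG in 16.1% and ATTGG in 37.4%, each lying within the one before. TGAGTCA was in 5.20%, TGCTGAC in 4.67% and CTTCCTC in 13.6%. GAGGAAGT was in 3.20% and AGGAAGT, which lies within it, in 9.35%. CACGTG was in 7.15%, TCATGTGA in 0.986% and CATGTG, which lies within that one, in 14.2%. A match is a description of letters only.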

Additional observations from a re-analysis of the deposited data

Results flagged for a closer look

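For 10 genes the difference between members and comparison macrophages ran in opposite directions in Prox1 eGFP day 21 (39 and 18 cells) and Vegfc CRE day 7 (630 and 577 cells), with both counting intervals excluding a ratio of 1. Only named or listed genes with the minimum at day 21 were searched, so the 10 are no share of all 2075 genes compared there. The difference between the libraries was not tested, and genotype, time and library cannot be told apart. Ratios below are members over comparison macrophages, at day 21 and then in Vegfc CRE day 7.

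Heat shock and immediate early genes, which also respond to tissue digestion, made up 6 of them. The list of such genes had 19 with the minimum at day 21. Hspa1a had a ratio of 1.45 at day 21 and 0.487 in Vegfc CRE day 7, Hspa1b 1.61 and 0.538, Hsp90aa1 1.99 and 0.583, Hspa8 1.13 and 0.713, Junb 1.27 and 0.776, and Ier3 1.67 and 0.775. Cxcl2, a neutrophil attractant, stood at 1194 CPM in members and 310 CPM in comparison macrophages at day 21, a ratio of 3.85 (3.06 to 4.91), against 495 and 644 CPM, a ratio of 0.768, in Vegfc CRE day 7. Thbs1, the matrix protein thrombospondin 1, had a ratio of 1.99 (1.08 to 3.91) at day 21 and 0.296 in Vegfc CRE day 7. Lpl, which frees fatty acids from lipoproteins, ran the other way, with 0.609 at day 21 and 1.44 in Vegfc CRE day 7, as did the chemokine gene Ccl9, with 0.653 and 1.08.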

How the results depend on the processing

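Members were 8.91% of cells, 4.89% with at least 5 UMIs of the receptors and 2.56% with both receptors. Against 369 genes higher and 183 lower in members, at least 5 receptor UMIs gave 291 lower, both receptors 718 higher and 430 lower, and no collagen limit 468 lower. These were calls out of 9458, 8747, 8108 and 9807 genes, in that order. A minimum of 10 UMIs per gene gave 992 and 487 of 12397 genes, and of 1 UMI 1324 and 701 of 13555. The genes added by these lower minimums had under 50 UMIs over both groups. With at least 3 Lyve1 UMIs, which 54 members had, 620 genes were lower, against 391 with the 121 Lyve1-positive members. The share of called genes that were higher was 66.8%, and 40.6% without the collagen limit. It was 60.5% with edgeR's TMM scaling and 59.1% with the median of ratios. None of 390 recomputed ratios of named genes reversed direction, and 305 of them moved by less than their counting interval. These genes were the 15 largest and 15 smallest ratios, recomputed in largely the same cells. A reversal was thus unlikely from the start, and its absence is no independent support. MHC class II had 8 to 9 genes lower and 0 higher under every alternative run. Repair genes lower ran from 0 to 14, proliferation genes higher from 0 to 6, glycolysis genes lower from 1 to 6 and inflammatory mediators lower from 5 to 10. Where a count moved, the cause was not tested. No paired analysis was possible because each group is 1 library, and for the same reason no replicate could be left out. The comparison with at least 20 cells in both groups of another library gave no value, since at most 18 comparison macrophages were found there. Levels under a few CPM, as for Lyve1 in comparison macrophages, rest on few UMIs.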

Other observations

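In Lyve1-positive members, set against Lyve1-negative members, 7 of 11 genes listed for proliferation passed 2-fold downwards and 0 upwards, beside 4.66% of all genes downwards. Some of these calls rest on few UMIs, with 3 for Birc5, 5 for Top2a and 8 for Cdk1 in Lyve1-positive members, and Pcna and Mcm5 had ratios of 0.995 and 0.971. In Cd163-positive against Cd163-negative members 5 of 11 proliferation genes and 5 of 18 glycolysis genes passed 2-fold downwards, beside 4.01% of all genes. Scd1, a fatty acid desaturase, stood at 25.7 CPM in members and 0.797 CPM in comparison macrophages but was read in 1.90% of members, so few cells held its counts.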
